A study of Homo sapiens with 9 samples.

Results

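The 3 arrays of MDA-MB-231 cells exposed to YM-155 for 20 h were compared with the 3 arrays of cells exposed for 8 h, which are 6 of the 9 arrays in the series. MDA-MB-231 is an established human breast cancer line taken from a pleural effusion, and YM-155 (sepantronium bromide) is a small molecule known for lowering expression of BIRC5, which encodes survivin. The 8 h cells received YM-155 in steps that added up to 83 ng/ml and looked alive and attached, while the 20 h cells received 14.6 ng/ml, given as the LC50. The drug was dissolved in DMSO and diluted in HBSS, the other 3 arrays came from untreated cells, and neither a time nor a vehicle is given for those. Dose and time therefore differ together between the treated groups, and no difference below can be assigned to either. All samples are of 1 cell line, and the labels do not say whether the 3 samples of a group were separate cultures. The p-values therefore reflect the spread among these samples alone, and that spread may be technical.

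As background, cells pass through the division cycle under cyclin-dependent kinases, and genes for DNA synthesis and for mitosis are controlled by E2F factors and by complexes built on MuvB, such as DREAM, which bind the CHR element. Immediate early genes such as FOS, JUN and EGR1 answer growth factor and stress signals within minutes and encode transcription factors. Small nucleolar RNAs, Cajal body RNAs and 7SK RNA are short structured transcripts that guide RNA modification or hold the elongation factor P-TEFb. Stress in the endoplasmic reticulum, denatured protein, free zinc and low sterol each have a set of target genes of their own.

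Every value is an RMA summary on the log2 scale, so that a difference of 1 is a 2-fold change, and array medians over the tested genes lay between 3.81 and 3.90. The 22395 genes with a single symbol were tested, each by its brightest probe set. Over genes above the median level, differences between a 20 h and an 8 h array had an SD of 0.469 to 0.588, against 0.148 to 0.222 within the 8 h group and 0.209 to 0.228 within the 20 h group. Replicates 1 and 2 at 8 h were the closest pair of all, at 0.148, and may not be independent samples; with both counted as 1, 1489 genes were called higher and 2509 lower. Of the markers listed for the line, VIM, an intermediate filament protein, was at 8.47 ± 0.01 at 8 h and 8.49 ± 0.08 at 20 h (SD, n = 3). CD44 was at 9.49 ± 0.07 and 9.23 ± 0.03, but SPARC was at 3.14 ± 0.11 and 3.38 ± 0.12 (SD, n = 3), below the median level of 3.87. The estrogen receptor gene ESR1, absent from this line, was at 3.07 ± 0.22 and 3.04 ± 0.16, and the leukocyte gene PTPRC at 1.78 ± 0.05 and 1.79 ± 0.05 (SD, n = 3). Of 15 leukocyte and blood markers, 0 rose and 0 fell, against 8.88% and 13.5% of all genes. Most of them were dim, where calls are rare, and a call between treated groups does not test presence. The highest at 20 h were CD79A at 4.14 and CD79B at 4.05.

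Genes of cell division were mostly lower in the 20 h group than in the 8 h group, and many early response genes were higher. In limma with Benjamini-Hochberg adjustment, 5014 of the 22395 genes differed at an adjusted p under 0.05, which is 22.4%. Of these, 1989 were higher at 20 h (8.88%) and 3025 were lower (13.5%). A change of at least 2-fold was called for 248 genes higher (1.11%) and 400 lower (1.79%), and one of at least 4-fold for 28 and 25. Without 8 h replicate 3, 1315 genes were higher. The median difference over all genes was 0.02, and the middle of the distribution ran from -0.16 to 0.17 between the quartiles. The share called lower grew with signal, from 1.07% in the dimmest of 5 equal groups of genes to 30.6% in the brightest, and the share called higher grew from 1.63% to 14.6%. A dim gene that was not called may still differ.

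**Figure D1:**
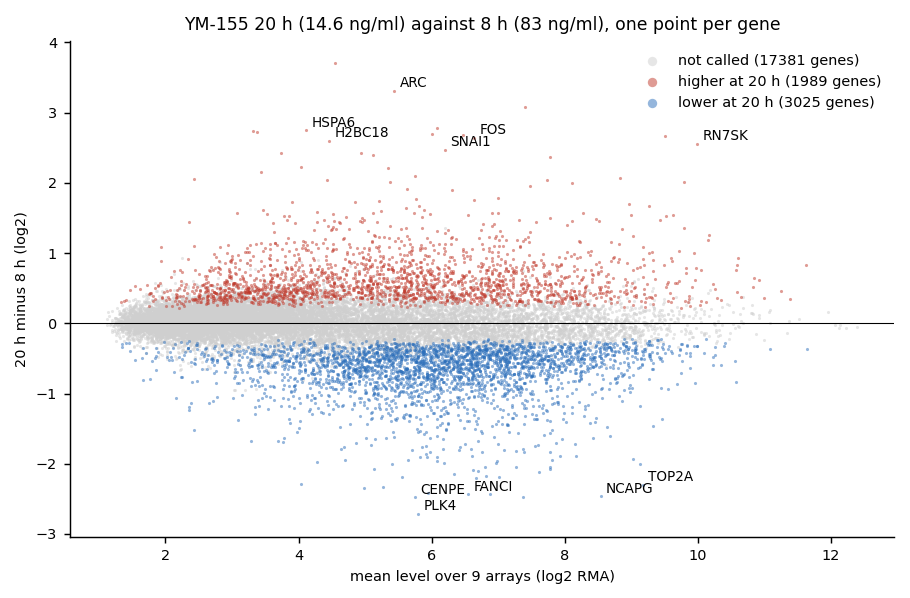
Each point is 1 gene, with its mean level over 9 arrays (log2 RMA) on the horizontal axis and its 20 h minus 8 h difference (log2) on the vertical axis. The 1989 genes called higher are red, the 3025 called lower are blue and the rest are grey. ARC, FOS, SNAI1, HSPA6, H2BC18 and RN7SK stand far above 0, and PLK4, CENPE, FANCI, NCAPG and TOP2A far below.

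The 15 largest falls held 13 genes known for roles in chromosome duplication, segregation or repair. PLK4, the kinase that starts centriole duplication, read 6.621, 6.510 and 6.999 at 8 h and 4.336, 4.042 and 3.606 at 20 h. All 20 h arrays lay below all 8 h arrays, and PLK4 fell by 2.72 (SE 0.20, limma adjusted p = 1.38e-05), or 6.57-fold. CENPE, a kinetochore motor, read 6.56, 6.54 and 6.66 at 8 h and 4.33, 4.09 and 3.91 at 20 h, a fall by 2.48 (SE 0.16, limma adjusted p = 8.47e-06). Its arrays at 8 h lay within the range of the controls, at 6.77, 6.73 and 6.16. NCAPG, a condensin subunit, read 9.13, 9.16 and 9.38 at 8 h and 6.77, 6.83 and 6.67 at 20 h, a fall by 2.47 (SE 0.09, limma adjusted p = 6.69e-07). TOP2A, the topoisomerase that untangles sister chromatids, read 9.76, 9.77 and 9.78 at 8 h and 7.57, 7.48 and 7.37 at 20 h, with controls at 10.34, 10.38 and 10.06. It fell by 2.30 (SE 0.10, limma adjusted p = 8.93e-07), and its 8 h arrays lay below the controls but far above the 20 h arrays. The other falls of this size were BRIP1 (-2.47) and FANCI (-2.44), of crosslink repair, KIF20B (-2.44), SKA1 (-2.42), CENPI (-2.19), SGO1 (-2.18), NDC80 (-2.15), DSCC1 (-2.19) and CKAP2L (-2.20). CCDC144A (-2.35) and GUSBP3 (-2.32) belong to families of near copies, so their probes may read several loci.

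Nearly the whole kinetochore list fell. Of 35 kinetochore and centromere genes, 33 fell and 0 rose, against 13.5% and 8.88% of all genes, with 21 falls of at least 2-fold and a median of -1.43 against 0.02 over all genes. Taken as a median over members against the control mean, the list read -0.41, -0.37 and -0.34 on the 8 h arrays and -1.66, -1.71 and -1.83 on the 20 h arrays, so the arrays of each treatment agreed closely. All 13 mitotic kinesins fell, with a median of -1.44, among them KIF11 (-2.04), the motor that separates the spindle poles, KIF14 (-2.04), KIF15 (-1.79) and KIF23 (-1.72). Of 19 kinesins of cargo transport, 8 fell, with KLC1 (-0.71) and KIF3A (-0.53) the largest, and the median was -0.15. Of 28 centriole genes, 21 fell, including ASPM (-2.09), SASS6 (-1.44) and CCP110 (-1.51), with a median of -0.78.

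Regulators of entry into mitosis followed the same course. Of 30 such genes 26 fell, and 14 of the falls were at least 2-fold, for a median of -0.98. CDK1, the kinase that drives mitosis, read 7.87, 7.85 and 8.03 at 8 h and 6.04, 5.94 and 5.65 at 20 h, with controls at 8.18, 8.02 and 7.84. The 8 h arrays overlapped the controls and the 20 h arrays lay far below both, a fall from 8 h by 2.04 (SE 0.12, limma adjusted p = 5.18e-06). Its partner cyclin gene CCNA2 fell by 1.95, TPX2, a spindle assembly factor, by 1.46 and MASTL, the kinase that holds phosphatases off during mitosis, by 1.43. Of 27 condensin, cohesin and chromosome structure genes 22 fell, with NCAPH (-1.99) and MKI67 (-1.94), the proliferation marker. Among 25 genes of the anaphase-promoting complex and the spindle checkpoint, 14 fell, led by the kinases BUB1 (-2.12) and TTK (-1.81). UBE2S, an E2 enzyme of that complex, rose by 0.78 and was the single member to do so. In RNA from whole cultures, fewer cells in a phase of the cycle and less transcript per cell cannot be told apart.

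Promoters of the mitotic lists often held the CHR element. Those lists were chosen with earlier results of these data known, and mitotic genes are known for this element. Its share is thus a trait of the lists and gives no support to the falls. RefSeq promoters (build GRCh38.p14, 250 bases before to 50 after the start) were at hand for 15307 of the tested genes. The CHR element TTTGAA, on either strand, was in 50.0% of 88 promoters of the G2/M, kinetochore, mitotic kinesin and condensin lists, in 12.4% of all tested genes and in 15.4% of all 27305 RefSeq promoters. All 44 members with the element fell, with a median of -1.43, and 37 of the 44 without it fell, with a median of -0.88. Among all genes that fell at least 2-fold, 28.9% of 301 promoters held it, against 9.93% of 141 among those that rose at least 2-fold. A match of 6 letters is a description and no proof of a bound site. Stretches upstream of 3 starts are shown for the kinase, the topoisomerase and the motor named above, with CHR matches in capitals, as TTTGAA or its reverse complement TTCAAA, each 5′ to 3′ on the strand of the gene.
CDK1: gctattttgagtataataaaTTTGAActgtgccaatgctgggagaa
TOP2A: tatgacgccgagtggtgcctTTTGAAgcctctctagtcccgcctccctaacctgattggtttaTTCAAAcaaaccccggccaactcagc
KIF11: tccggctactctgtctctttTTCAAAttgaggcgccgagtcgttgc
These lie at chr10:60778150-60778195, plus strand for CDK1, at chr17:40418022-40418110, minus strand for TOP2A and at chr10:92593082-92593127, plus strand for KIF11. The match of CDK1 begins 161 bases before the start and that of KIF11 28 bases before it, and TOP2A has a pair, 194 and 151 bases before it.

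**Figure D2:**
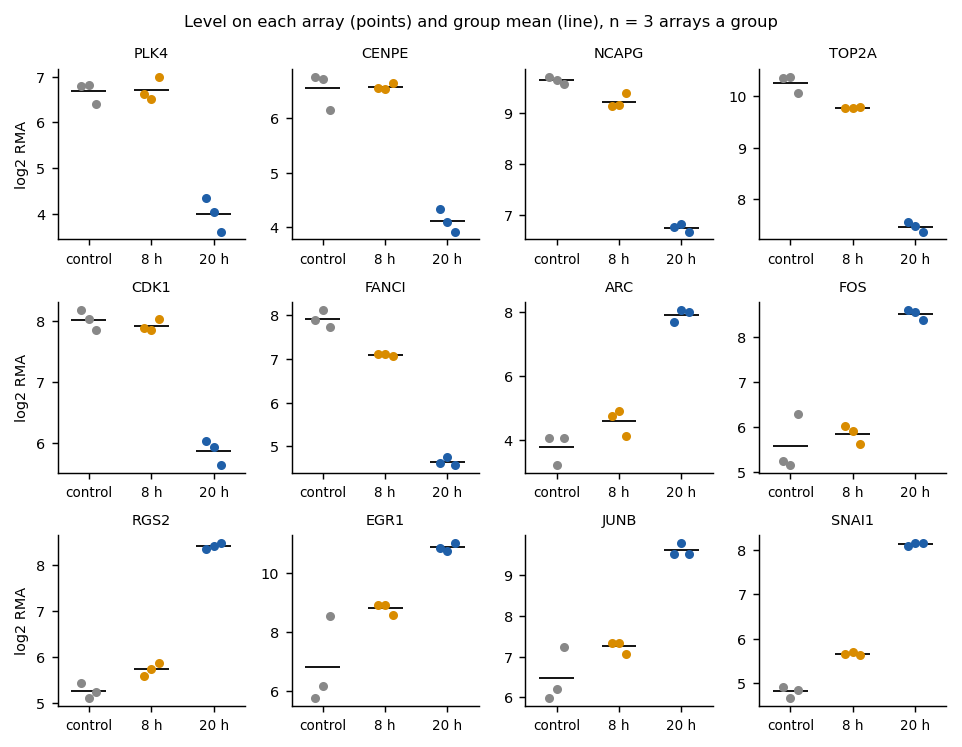
Each panel shows 1 gene, with the log2 RMA level of every array as a point and the mean of the 3 arrays of a group as a line, for control (grey), 8 h (orange) and 20 h (blue). The 6 genes from PLK4 to FANCI have their 20 h arrays below all others, and the 6 from ARC to SNAI1 have them above all others.

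Genes of DNA synthesis fell as well. Of 35 genes of origin licensing and S phase entry, 28 fell and 0 rose, with a median of -0.87. MCM10, which helps to activate the replicative helicase, read 7.50, 7.42 and 7.64 at 8 h and 5.67, 5.59 and 5.43 at 20 h, a fall by 1.96 (SE 0.09, limma adjusted p = 1.43e-06) without overlap. CLSPN, TIMELESS and TICRR, which steady the fork or fire origins, fell by 1.78, 1.55 and 1.38. Of 32 fork genes 27 fell, led by the clamp loader subunit RFC3 (-1.53), the polymerase subunit POLA1 (-1.51) and the histone chaperone subunit CHAF1B (-1.45). POLD4 and POLE3, small accessory subunits of the replicative polymerases, rose by 0.69 and 0.60. In nucleotide synthesis 16 of 27 genes fell, among them the thymidylate synthase gene TYMS (-1.47) and both main subunits of ribonucleotide reductase, RRM1 (-1.42) and RRM2 (-1.45). Against control, the licensing list had medians of -0.36 at 8 h and -1.26 at 20 h, which share the control arrays.

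E2F letters marked the DNA synthesis promoters in the way that CHR marked the mitotic ones, which is likewise a trait of the chosen lists. The site was searched on both strands as TTTCGCGC, TTTGGCGC or TTTCCCGC. It was in 30.9% of 81 promoters of the licensing, fork and nucleotide lists, in 3.62% of all tested genes and in 2.79% of all RefSeq promoters, while CHR was in 4.94% of the same 81. Of the 25 members with the letters 21 fell, with a median of -0.84, and of the 56 without them 40 fell and 3 rose, with a median of -0.77. Presence of the letters thus did not go with a clearly larger fall inside these lists. RBL1, the pocket protein p107, which itself binds E2F, and TYMS are shown with the matches in capitals.
RBL1: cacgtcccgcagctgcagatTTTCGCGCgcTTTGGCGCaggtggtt
TYMS: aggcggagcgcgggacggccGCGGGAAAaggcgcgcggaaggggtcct
RBL1 is at chr20:37095998-37096043, minus strand, with matches that begin 26 and 16 bases before its start, and TYMS is at chr18:657594-657641, plus strand, with the reverse complement 39 bases before its start. In the E2F and pocket protein list, RBL1 read 8.54, 8.54 and 8.89 at 8 h and 6.67, 6.61 and 7.03 at 20 h and fell by 1.89 (SE 0.13, limma adjusted p = 1.06e-05). The repressor E2F8 fell by 1.46, RB1 by 1.12 and the dimer partner TFDP2 by 0.78, while E2F4, which acts in resting cells, rose by 0.93. The activators E2F1 and E2F3 had differences of -0.33 (limma adjusted p = 0.245) and 0.20 (limma adjusted p = 0.183).

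Inhibitors of the cycle moved against these falls in part. CDKN1C, which encodes the inhibitor p57, read 4.68, 4.66 and 4.09 at 8 h and 5.75, 5.72 and 5.33 at 20 h and rose by 1.13 (SE 0.18, limma adjusted p = 0.00141). CDKN1A, which encodes p21, rose by 0.82, the cyclin gene CCND2 by 0.91 and CDK6 by 0.43, while CDK2 fell by 0.67. CCND1, another D-type cyclin gene, had a difference of 0.09 (limma adjusted p = 0.615), and CDKN1B one of -0.16 (limma adjusted p = 0.247).

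Repair of crosslinks and double-strand breaks went down by about the size seen for replication. Of 31 genes of homologous recombination and the Fanconi pathway 21 fell and 0 rose, 15 of the falls being at least 2-fold, for a median of -0.95. FANCI, which is ubiquitinated with its partner FANCD2 at stalled forks, read 7.11, 7.11 and 7.07 at 8 h and 4.63, 4.76 and 4.58 at 20 h, with controls at 7.89, 8.13 and 7.72. The groups formed 3 steps without overlap, and from 8 h to 20 h FANCI fell by 2.44 (SE 0.10, limma adjusted p = 8.93e-07). BRIP1, a helicase that binds BRCA1, fell by 2.47, the Holliday junction nuclease gene GEN1 by 2.08 and the helicase gene BLM by 1.94. Of 13 damage checkpoint genes 6 fell, including CHEK1 (-0.99), CHEK2 (-0.68) and ATR (-0.84), while the histone gene H2AX rose by 1.16. Of 40 genes of end joining and of base, mismatch and nucleotide excision repair, 23 fell, with NEIL3 (-1.64) and PRKDC (-1.22), and ERCC1, a nuclease subunit, rose by 0.74.

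The nuclear envelope list fell with the cycle lists, though it is not made of cycle genes by name. Of 35 nuclear pore, transport and lamina genes 24 fell and 0 rose, with a median of -0.52. TMPO, a lamina-binding membrane protein, read 7.65, 7.63 and 7.66 at 8 h and 6.37, 6.38 and 6.32 at 20 h and fell by 1.29 (SE 0.07, limma adjusted p = 4.4e-06). NUP107 and NUP43, both of the Y-shaped scaffold of the pore, fell by 1.19 and 1.15, and XPO1, the exporter of nuclear proteins, by 1.04. Over members, the list read -0.16, -0.14 and -0.12 against control on the 8 h arrays and -0.63, -0.73 and -0.71 on the 20 h arrays. Among chromatin writers 14 of 40 were lower, against 13.5% of all genes and 30.6% of the brightest of 5 equal groups of genes. They included the methyltransferase genes NSD2 (-1.05) and SUV39H2 (-0.98) and the Polycomb subunit SUZ12 (-1.04).

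**Figure D3:**
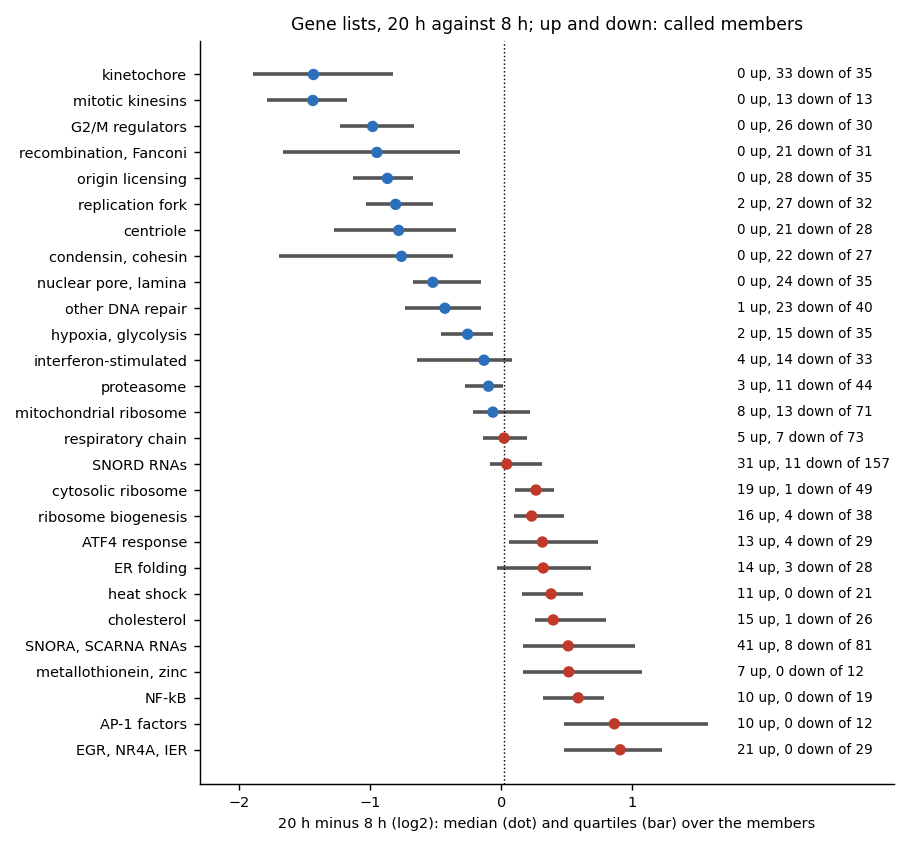
Each dot is the median 20 h minus 8 h difference (log2) over the members of a gene list and each bar spans its quartiles, with dots red where the median is above 0 and blue where it is below. The dotted line marks the median of all genes, 0.02, and the counts at the right are members called higher and lower. Cycle, repair and nuclear pore lists lie to the left and early response genes furthest to the right.

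Early response genes were among the largest rises. ARC, an immediate early gene best known from neurons, read 4.77, 4.91 and 4.14 at 8 h and 7.69, 8.07 and 8.00 at 20 h, with controls at 4.06, 3.23 and 4.08. It rose by 3.31 (SE 0.25, limma adjusted p = 2.01e-05), or 9.95-fold, with no overlap between the treated groups. RGS2, a brake on G protein signalling, read 5.59, 5.75 and 5.87 at 8 h and 8.36, 8.42 and 8.49 at 20 h and rose by 2.69 (SE 0.11, limma adjusted p = 6.71e-07), and its 8 h arrays were within 1 log2 unit of the controls. SNAI1, a repressor of epithelial genes, read 5.67, 5.69 and 5.63 at 8 h and 8.09, 8.15 and 8.15 at 20 h and rose by 2.47 (SE 0.08, limma adjusted p = 5.31e-07). RASD1, a Ras-like protein, rose by 2.79, the protease inhibitor gene PI3 by 2.40 and ZNF296 by 2.04. REXO1L1P (3.70) and SRGAP2B (1.99), also among the 15 largest rises, have near-identical copies, so their probes may read several loci, and SRGAP2B was not called when its probe sets were averaged (limma adjusted p = 0.114).

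AP-1 factors rose as a family. Of 12 members 10 rose and 0 fell, with 4 rises of at least 2-fold and a median of 0.86. FOS read 6.03, 5.91 and 5.64 at 8 h and 8.60, 8.54 and 8.36 at 20 h, with controls at 5.26, 5.17 and 6.30. The 8 h arrays overlapped the range of the controls, of which replicate 3 was the highest, and from 8 h to 20 h FOS rose by 2.64 (SE 0.25, limma adjusted p = 7.16e-05), or 6.24-fold. JUNB read 7.34, 7.32 and 7.07 at 8 h and 9.52, 9.79 and 9.52 at 20 h and rose by 2.36 (SE 0.27, limma adjusted p = 0.000192), with controls at 5.98, 6.19 and 7.24, of which replicate 3 lay within the range of the 8 h arrays. FOSB rose by 1.95, JUND by 1.45, JUN by 0.76 and ATF3 by 0.94. FOSL2 had a difference of -0.12 (limma adjusted p = 0.534) and BATF3 one of 0.15 (limma adjusted p = 0.506). As medians over members against the control mean, the family read 0.76, 0.73 and 0.53 on the 8 h arrays. On the 20 h arrays it read 1.58, 1.56 and 1.59. The family thus lay above the control mean in both treated groups, and further above it in the 20 h group. The controls themselves read -0.14, -0.26 and 0.29, a wider spread than within either treated group.

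The wider list of EGR, NR4A, IER and related early genes behaved alike. Of 29 members 21 rose and 0 fell, 14 rises being at least 2-fold, with a median of 0.91. The endothelial factor gene KLF2 rose by 1.90 and the nuclear receptor gene NR4A1 by 1.44. EGR1, a zinc finger factor under serum response factor, read 8.90, 8.90 and 8.59 at 8 h and 10.84, 10.73 and 11.01 at 20 h, with controls at 5.77, 6.18 and 8.55. Treated groups did not overlap, and EGR1 rose by 2.07 (SE 0.56, limma adjusted p = 0.0235). Its controls spread over more than 2 units, and without any 1 of the 6 treated arrays the adjusted p lay between 0.0554 and 0.0842. Among 30 early gene promoters found in RefSeq, 10.0% held the CArG box, the letters that serum response factor binds, against 1.24% of all tested genes and 1.29% of all RefSeq promoters. That share too describes the chosen lists and gives no support to the rises. EGR1 is shown because its upstream region, at chr5:138465354-138465425, plus strand, holds 2 such boxes, here in capitals, 105 and 83 bases before the start.
EGR1: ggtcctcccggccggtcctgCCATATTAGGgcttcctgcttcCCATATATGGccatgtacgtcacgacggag
The other early gene promoters with the box were those of SRF and RND3.

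Regulators that cut signals or short-lived mRNAs short rose beside these factors. In the list of GADD45, salt-inducible kinase and mRNA decay genes 8 of 19 rose, 5 at least 2-fold. GADD45G, a stress protein that binds cycle kinases, read 4.94, 4.94 and 4.61 at 8 h and 7.01, 7.09 and 7.04 at 20 h and rose by 2.22 (SE 0.19, limma adjusted p = 4.28e-05). ZFP36 and ZFP36L2, which target AU-rich mRNAs for decay, rose by 1.57 and 1.28, and GADD45B by 1.45. The phosphatases DUSP8 and DUSP2, which remove phosphate from MAP kinases, rose by 1.14 and 1.09. MYC rose by 1.18, and its partner MAX by 0.47, while the other 8 members of that network were not called. In the NF-kB list 10 of 19 rose and 0 fell, led by the inhibitor genes NFKBIA (1.48) and NFKBIB (1.12), and without control replicate 3 the number that rose was 17. The cytokine gene IL11 rose by 1.77 and the matrix metalloproteinase gene MMP1 by 1.53. PER1, a clock gene that also answers acute signals, rose by 1.05.

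Stress response genes rose in several branches. Of 29 genes of the integrated stress response 13 rose and 4 fell, with a median of 0.31. DDIT3, which encodes the factor CHOP, read 4.22, 4.36 and 3.82 at 8 h and 5.69, 5.49 and 5.26 at 20 h and rose by 1.34 (SE 0.21, limma adjusted p = 0.00115). PPP1R15A, the phosphatase subunit that restores translation, rose by 1.35 and the glutathione-degrading enzyme gene CHAC1 by 1.23, whereas VLDLR (-0.74) and DDIT4 (-0.56), both also responsive to low oxygen, fell. Of 28 genes of folding and quality control in the endoplasmic reticulum 14 rose, against 8.88% of all genes. Without 8 h replicate 3 the number was 9. HSPA5, the main chaperone of that compartment, read 10.39, 10.47 and 10.38 at 8 h and 11.24, 11.26 and 11.24 at 20 h, with controls at 10.17, 10.02 and 10.12, and rose by 0.83 (SE 0.07, limma adjusted p = 4.7e-05). SDF2L1, a cofactor of HSPA5, rose by 1.44, HERPUD1, a degradation factor, by 0.97 and XBP1, a transcription factor of the unfolded protein response, by 0.93. ERO1A, the oxidase that makes disulfide bonds, fell by 0.83, and DERL2 (-0.38) and EDEM1 (-0.34) of the same list fell as well.

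Heat shock, zinc and sterol genes also went up. In the heat shock list 11 of 21 rose and 0 fell, with a median of 0.38. HSPA6, a strictly inducible HSP70 gene, read 3.06, 3.41 and 3.43 at 8 h and 6.20, 5.76 and 6.20 at 20 h, with controls at 3.12, 2.53 and 3.34. The 8 h arrays were within about 1 unit of the controls, and HSPA6 rose by 2.75 (SE 0.20, limma adjusted p = 1.69e-05), or 6.73-fold. DNAJB1 rose by 0.84 and FKBP4 by 0.82, both cochaperones. Of 12 metallothionein and zinc genes 7 rose and 0 fell. MT1X, a metal-binding protein, read 8.91, 8.86 and 8.79 at 8 h and 10.11, 9.93 and 9.77 at 20 h and rose by 1.09 (SE 0.10, limma adjusted p = 5.16e-05), and its 8 h arrays lay within 0.5 of the controls at 8.74, 8.80 and 8.62. The zinc exporter gene SLC30A1 rose by 1.11 and MT2A by 0.61. Metallothionein genes are close in sequence, so their probes may share signal.

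Genes of cholesterol synthesis rose as well. Of 26 genes of sterol synthesis, its control and sterol transport 15 rose, 3 at least 2-fold, with a median of 0.40. The transporter gene ABCA1 fell by 0.54 (limma adjusted p = 0.0373). HMGCS1, an early enzyme of the pathway, read 6.77, 6.79 and 6.86 at 8 h and 8.31, 8.21 and 8.15 at 20 h, with controls at 5.23, 5.44 and 5.20. All 3 groups were apart, and from 8 h to 20 h HMGCS1 rose by 1.42 (SE 0.09, limma adjusted p = 6.18e-06). DHCR7, which makes cholesterol in the final step, rose by 1.30, MSMO1, an oxidase of the pathway, by 1.24, and INSIG1, which retains the SREBP factors, by 0.90. At 8 h, INSIG1 and MSMO1 were also above control, by 1.56 (limma adjusted p = 9.02e-06) and 0.74 (limma adjusted p = 0.000361). The step at 8 h was not shared by every member, since DHCR7 differed from control there by 0.26 (limma adjusted p = 0.169). In fatty acid metabolism 6 rose and 5 fell of 27, with FASN, the fatty acid synthase, higher by 0.77 and ACADM, of fatty acid oxidation, lower by 1.03.

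Promoters of 3 of these stress lists held response elements more often than promoters at large, with letters chosen after the values were known. The endoplasmic reticulum stress element, CCAAT and CCACG with 9 bases between them, was in 25.0% of 24 promoters of the folding list and in 0.098% of all tested genes. Of the 6 members that hold it, HSPA5, XBP1 and ERO1B (0.80) rose, CRELD2 rose by 0.42 with a call lost without 8 h replicate 1 or 3 or 20 h replicate 3 (limma adjusted p from 0.0524 to 0.0593), and CALR and CANX had differences of 0.11 (limma adjusted p = 0.323) and -0.03 (limma adjusted p = 0.824). The heat shock element was searched as 3 alternating GAA and TTC units with 2 bases between neighbours. It was in 22.2% of 18 promoters of its list and in 0.405% of all, namely those of HSPA6, CHORDC1 (0.59), SERPINH1 (0.60) and DNAJA1, which had a difference of 0.13 (limma adjusted p = 0.335). The metal response element, TGCACNC or TGCGCNC, was in 85.7% of 7 promoters of the zinc list, but it is short and was in 34.4% of all. All were searched on both strands. Upstream stretches of HSPA5, HSPA6 and MT1X are shown, because these genes carried the rises described above, with the element in capitals.
HSPA5: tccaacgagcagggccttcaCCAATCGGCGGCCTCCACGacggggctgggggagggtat
HSPA6: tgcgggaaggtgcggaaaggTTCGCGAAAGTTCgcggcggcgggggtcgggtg
MT1X: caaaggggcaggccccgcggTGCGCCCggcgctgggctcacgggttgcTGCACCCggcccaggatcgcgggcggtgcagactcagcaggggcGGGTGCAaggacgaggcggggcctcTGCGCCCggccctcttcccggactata
They lie at chr9:125241371-125241429, minus strand for HSPA5, at chr1:161524446-161524498, plus strand for HSPA6 and at chr16:56682300-56682443, plus strand for MT1X. HSPA6 carries the reverse complement, 74 bases before the start. MT1X carries 4 metal elements, beginning 150, 122, 78 and 53 bases before the start, the third of them as the reverse complement.

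Genes of low oxygen and glucose use went the other way, and the list was highest in the 8 h group. Those cells also received more YM-155, and whether time or dose set this level was not tested. Of 35 members 15 fell from 8 h to 20 h, with a median of -0.26. Against control, the list had medians of 0.31 at 8 h and 0.01 at 20 h, which share the control arrays. PDK1, a kinase that keeps pyruvate out of the mitochondrion, read 7.77, 7.77 and 7.65 in control, 8.78, 8.76 and 9.06 at 8 h and 7.52, 7.54 and 7.34 at 20 h. The 8 h arrays stood about 1 unit or more above every array of both other groups, and PDK1 fell by 1.40 (SE 0.10, limma adjusted p = 1.36e-05). INSIG2 read 7.24, 7.26 and 6.91 in control and 8.26, 8.16 and 8.33 at 8 h. At 20 h INSIG2 read 6.62, 6.38 and 6.28, all below the controls. From 8 h to 20 h it fell by 1.82 (SE 0.12, limma adjusted p = 8.6e-06). EGLN1, the oxygen-sensing hydroxylase, fell by 1.02 and HILPDA, a lipid droplet protein, by 1.12. TPI1, an enzyme of glycolysis, was an exception and rose by 1.21. TXNIP, which restrains glucose uptake, rose by 0.99 from 6.67 ± 0.17 to 7.66 ± 0.12, with control at 8.71 ± 0.15 (SD, n = 3). Its relative ARRDC3 fell by 0.70 and the glucose transporter gene SLC2A1 by 0.42.

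**Figure D4:**
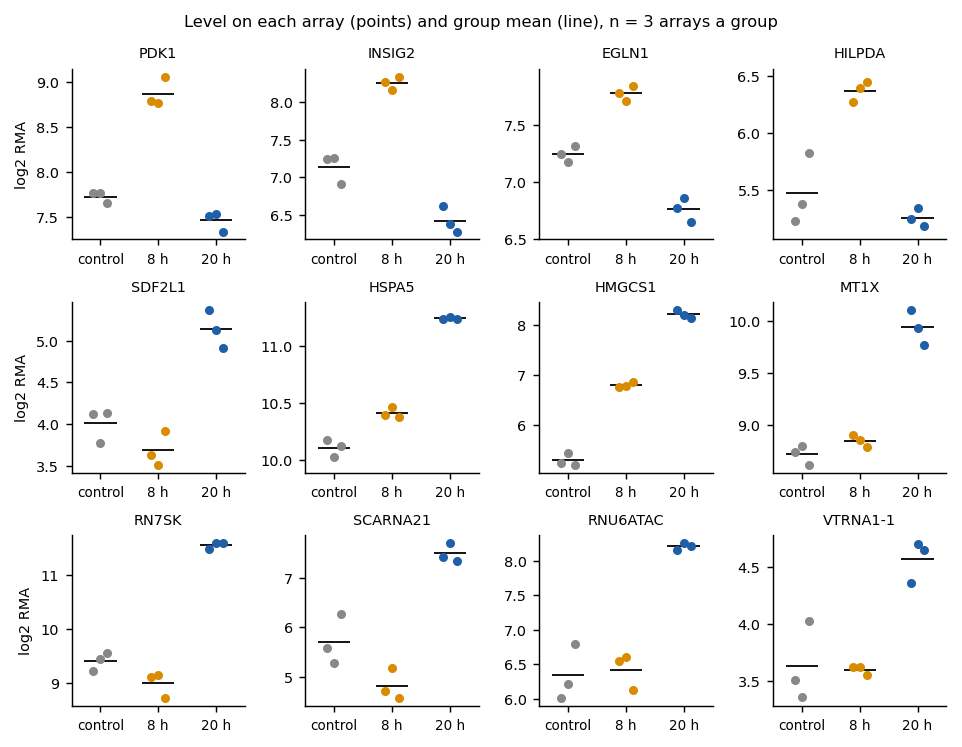
Each panel shows 1 gene, with the log2 RMA level of every array as a point and the mean of the 3 arrays of a group as a line, for control (grey), 8 h (orange) and 20 h (blue). PDK1, INSIG2, EGLN1 and HILPDA are highest at 8 h, and the other 8 genes are highest at 20 h.

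Several structured small RNAs were among the rises. Of 16 small nuclear RNAs in the RefSeq class 7 rose and 0 fell, and of 213 small nucleolar RNAs 60 rose and 15 fell, so that most were not called. RN7SK, the RNA that holds P-TEFb inactive, read 9.11, 9.16 and 8.73 at 8 h and 11.49, 11.59 and 11.59 at 20 h, with controls at 9.22, 9.44 and 9.56. The 8 h arrays lay below the controls and the 20 h arrays about 2 units above, a rise by 2.56 (SE 0.13, limma adjusted p = 1.97e-06), or 5.9-fold. HEXIM1, a protein that joins RN7SK in that complex, rose by 0.71, BRD2 by 0.78 and the elongation factor gene SUPT5H by 0.67, while CCNT1, the cyclin of P-TEFb, fell by 0.53. The following RNAs were grouped after their values were seen. RNU6ATAC and RNU4ATAC, of the minor spliceosome, rose by 1.79 and 0.62. RNU11 and RNU12, of the same machine, had differences of 1.00 and 0.72, with calls lost without any 1 treated array for RNU11 (limma adjusted p from 0.0569 to 0.0812) and without 8 h replicate 3 or 20 h replicate 1 for RNU12 (0.0617 and 0.0712). Of the vault RNAs, VTRNA1-1 rose by 0.97, VTRNA1-2 by 1.44 and VTRNA2-1 by 1.14. VTRNA1-3 had a difference of 0.84, with the call lost without 20 h replicate 2 or 3 (limma adjusted p up to 0.0879). The RNA components of RNase P, RPPH1, and of telomerase, TERC, rose by 0.81 and 0.67, and RMRP, of RNase MRP, by 0.36, a call that ended after a further quantile normalization (limma adjusted p = 0.436). Probe sets for such short RNAs do not separate processed from unprocessed forms.

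Guide RNAs of the nucleolus and the Cajal body are given by class, with no test of the classes against each other. Above the median level of all genes lay 51 of 61 SNORA, 14 of 20 SCARNA and 66 of 157 SNORD RNAs, and brighter genes are called more often. Of 81 box H/ACA and Cajal body RNAs 41 rose and 8 fell, 23 rises being at least 2-fold, with a median of 0.51. SCARNA21 read 4.70, 5.18 and 4.56 at 8 h and 7.45, 7.73 and 7.37 at 20 h, with controls at 5.58, 5.28 and 6.27, and rose by 2.70 (SE 0.24, limma adjusted p = 4.7e-05). SCARNA20 rose by 2.43, SNORA75 by 2.05, SCARNA11 by 2.01 and SNORA65 by 1.67, while SNORA2A (-1.22) and SNORA38B (-1.01) fell. Of 157 box C/D RNAs 31 rose, 10 at least 2-fold, 11 fell (7 without 8 h replicate 3 or 20 h replicate 3), and the median was 0.04. SNORD41 rose by 2.02 and SNORD56B fell by 1.78. Among 10 host genes of such RNAs 7 rose, with SNHG15 (1.12) and SNHG17 (1.10), while SNHG1 fell by 0.51. A guide RNA and its host overlap in the genome, so their probes may share transcripts.

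MicroRNA loci were mostly dim, and few were called. Of 1018 loci 58 rose and 67 fell, which is 5.70% and 6.58% against 8.88% and 13.5% of all genes. The number that rose was 30 without 20 h replicate 3 and 38, 35 and 32 without 8 h replicate 1, 2 or 3. A probe set here reads the locus, its hairpin or host transcript, and not the mature RNA. MIR3143 read 6.40, 5.76 and 6.31 at 8 h and 9.39, 9.16 and 9.16 at 20 h and rose by 3.08 (SE 0.17, limma adjusted p = 3.1e-06). MIR27A and MIR222 rose by 2.10 and 1.76, and MIR4668 and MIR644A fell by 2.29 and 1.90. MIR221, chosen after its values were seen because it neighbours MIR222 on chromosome X, had a difference of 0.40, and its call was lost without any 1 of the 8 h arrays or without 20 h replicate 1 (limma adjusted p up to 0.117 over the alternatives). A mature sequence from RefSeq (GRCh38.p14) is given for each of these loci where RefSeq listed one, with the seed, bases 2 to 8, in capitals, to show that MIR221 and MIR222 share the seed GCUACAU in their 3p arms while the other seeds differ.
hsa-miR-221-3p: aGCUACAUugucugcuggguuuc
hsa-miR-222-3p: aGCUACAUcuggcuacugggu
hsa-miR-27a-3p: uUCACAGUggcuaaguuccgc
hsa-miR-4668-5p: aGGGAAAAaaaaaaggauuuguc
hsa-miR-644a: aGUGUGGCuuucuuagagc
MIR222 read 5.69, 5.85 and 6.32 at 8 h and 7.67, 7.67 and 7.78 at 20 h and did not overlap between the groups. MIR4668 read 5.35, 5.34 and 6.08 at 8 h and 3.84, 3.35 and 2.72 at 20 h, with controls at 3.30, 3.48 and 2.86, so that it was high at 8 h alone.

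Cytosolic ribosomal protein genes leaned upward, histone genes were mixed and most energy genes did not lean that way. Of 49 cytosolic ribosomal protein genes 19 rose and 1 fell, with a median of 0.27, led by RPS19 (0.89), FAU (0.89) and RPL36 (0.84). RPS25 fell by 0.65. Ribosomal protein genes have many processed copies that probes may read. In ribosome biogenesis 16 of 38 rose, 10 without 8 h replicate 3 or without 20 h replicate 2, with RRP9 (1.09), NOP2 (0.82) and SNU13 (0.64), while NOC3L fell by 0.57. Of 71 mitochondrial ribosomal genes 8 rose and 13 fell (5 and 8 without 8 h replicate 3, and 5 rose without 20 h replicate 2), and the median was -0.06. Those counts were not far from the 8.88% and 13.5% of all genes. Among 28 histone genes of the replication-dependent type, whose transcripts normally accompany DNA synthesis, 12 rose, with a median of 0.32. H2AC21 (-0.45) and H2BC9 (-0.58) fell, and some rises were in dim members such as H1-1 and H1-3. Of the brightest members H2BC12 rose by 0.58, while H2AC20 (-0.08), H1-4 (-0.25) and H1-2 (0.03) were not called. At 20 h, H2BC12 (-0.12), H2AC20 (-0.64), H1-4 (-0.96), H1-2 (-0.52) and H2AC21 (-1.13) lay below the control mean. H2BC18 read 3.42, 3.56 and 3.68 at 8 h and 6.21, 6.18 and 6.08 at 20 h, with controls at 3.66 ± 0.32 (SD, n = 3), and rose by 2.60 (SE 0.14, limma adjusted p = 3.23e-06). H2BC17 rose by 1.74, H3C13 by 1.56 and H2AC6 by 1.54. Histone genes of a type are near copies of each other, so their levels are uncertain gene by gene.

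Genes of survival and death showed no common direction. BIRC5, the gene for which YM-155 is known, read 6.08, 6.06 and 5.85 at 8 h and 5.11, 5.39 and 5.16 at 20 h, with controls at 6.59, 6.56 and 6.24. The treated groups did not overlap, and BIRC5 fell by 0.77 (SE 0.12, limma adjusted p = 0.00126). MCL1, a pro-survival BCL2 relative, had a difference of -0.21 (limma adjusted p = 0.071), and SLC35F2, the carrier for YM-155, one of 0.16 (limma adjusted p = 0.292). Among 11 inhibitors of apoptosis and pro-survival genes 5 fell and 0 rose, BCL2 by 1.12, BIRC2 by 0.69 and NAIP by 0.64. XIAP had a difference of -0.16 (limma adjusted p = 0.347) and BCL2L1 one of 0.18 (limma adjusted p = 0.252). Of 20 pro-apoptotic and caspase genes 5 rose, 3 without 8 h replicate 3 or without 20 h replicate 2, and 4 fell. The BH3-only gene BCL2L11 rose by 0.71 and CYCS, cytochrome c, by 1.15, while APAF1, which cytochrome c activates, fell by 0.84 and CASP6 by 1.29. Of 15 death receptor genes, TNFRSF12A (0.93) and TNFRSF10D (0.69) rose, while FAS (-0.36) and the ligand gene TNFSF10 (-0.46) fell. Of all genes 8.88% rose and 13.5% fell.

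Interferon genes leaned downward. Of 33 members 14 fell and 4 rose, with a median of -0.13. SAMD9L, an antiviral protein, read 5.65, 5.74 and 5.88 at 8 h and 4.18, 3.90 and 4.27 at 20 h and fell by 1.64 (SE 0.13, limma adjusted p = 2.64e-05), GBP1 fell by 1.02, OAS3 by 0.96 and PARP9 by 0.93. IFI6 rose by 0.98, and the factors IRF1 and IRF7 by 0.80 and 0.71, so the list was mixed. In antigen presentation, the trimming enzymes ERAP1 and ERAP2 fell by 0.93 and 0.95, and HLA-B, a highly polymorphic gene whose probes need not match every allele, rose by 0.84. HLA-C (0.31), HLA-E (0.28) and HLA-F (0.39) also rose, while TAP2 (-0.58), PSMB9 (-0.41) and CD274 (-0.36) of that list fell.

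**Figure D5:**
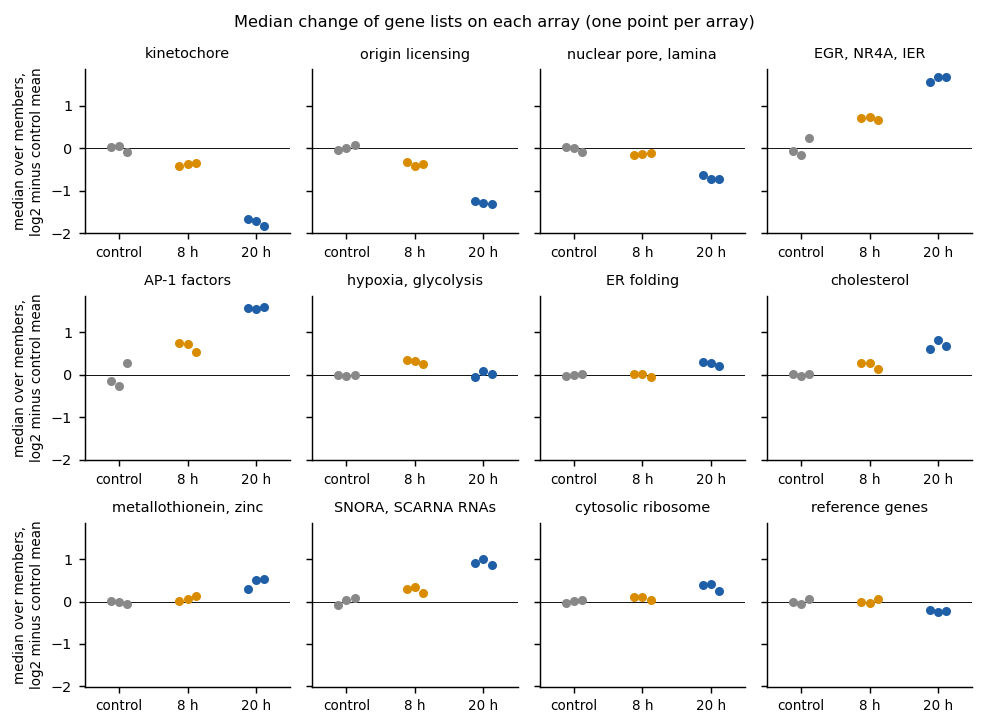
Each panel is a gene list and each point 1 array, placed at the median over members of the level minus the control mean (log2), for control (grey), 8 h (orange) and 20 h (blue). The kinetochore list lies between -0.41 and -0.34 on the 8 h arrays and between -1.83 and -1.66 on the 20 h arrays, and hypoxia and glycolysis genes are highest at 8 h.

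Oxidative stress, splicing and adhesion lists had some called members, and several counts were close to the share over genes at large. Of all genes 8.88% rose and 13.5% fell, and of the brightest of 5 equal groups 14.6% and 30.6%. Of 28 targets of the antioxidant factor NRF2 9 rose, among them the heme oxygenase gene HMOX1 (0.94), the transketolase gene TKT (0.94) and the quinone reductase gene NQO1 (0.81), and 2 fell, 0 without any 1 of the 8 h arrays or 20 h replicate 2 or 3 and 1 without 20 h replicate 1. Of 35 splicing regulators 8 fell, 5 without any 1 of the 8 h arrays or 20 h replicate 2, and 4 rose, 2 and 1 without 8 h replicates 1 and 2. The falls included PNISR (-0.89), NKTR (-0.76) and the kinase gene SRPK1 (-0.61). Of 29 actin and serum response factor targets 8 fell, with the coactivator gene MRTFB (-0.82) and the vinculin gene VCL (-0.49), and 3 rose, 0 or 1 without any 1 of the treated arrays and 5 without control replicate 3. Of 28 YAP and TAZ targets 7 rose and 4 fell, each 2 without 8 h replicate 3, and 3 or 4 rose without 8 h replicate 1 or any 1 of the 20 h arrays. In the TGF-beta and BMP list 8 of 31 rose, with the inhibitors of differentiation ID4 (1.21) and ID2 (0.98). Of 27 growth factor and receptor genes 8 rose, 3 without 8 h replicate 1 or 3 and 4 without 20 h replicate 1 or 3, among them GDF15 (0.60). In the lysosome and autophagy list 10 of 46 rose, led by the sialidase gene NEU1 (1.42).

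Lists outside these themes stayed near the background or were split. Of 73 respiratory chain genes the median was 0.02, and of 44 proteasome genes -0.10. Of 435 ZNF genes 72 fell and the median was -0.05. Among 36 integrin and protease genes, MMP3 (0.75) and MMP10 (0.75) rose with MMP1, and the integrin genes ITGA6 (-0.54) and ITGA2 (-0.53) fell. Apart from SNAI1, few genes of the epithelial to mesenchymal transition were called, GRHL2, an epithelial factor, falling by 0.68. Of 19 luminal epithelial markers 5 rose, TFF1 by 1.05 and AGR2, which is also a folding enzyme, by 1.02, and XBP1 is counted there as well. Genes often used as references were not all level. HPRT1, of purine salvage, read 7.66, 7.56 and 7.79 at 8 h and 6.80, 6.70 and 6.45 at 20 h and fell by 1.02 (SE 0.11, limma adjusted p = 0.000123), PPIA fell by 0.74, TFRC by 0.37 and PGK1 by 0.34. ACTB, GAPDH, B2M, TBP and GUSB were not called, with differences from -0.14 to 0.24.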

How the data were processed

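Per the submitters' processing notes, the authors made the deposited log2 values with RMA in Affymetrix Expression Console. Versions and genome build were not given in the sources used here. Of 53617 probe sets, 23871 had a single gene symbol in the platform annotation, 1842 had several and 27904 were not listed. The brightest probe set stood for each of 632 genes with more than 1, and 89 symbols were updated through RefSeq, which gave 22395 genes. No value was filtered or renormalised.

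The 3 group means were fitted with limma 3.58.1 in R 4.3.3 (lmFit and eBayes, 6 residual and 4.01 prior degrees of freedom), two-sided, with Benjamini-Hochberg adjustment over all genes and calls at an adjusted p under 0.05. With 3 arrays a group, the smallest p of an exact permutation test is 0.1. In simulated data with 100 genes changed at each size among 22395, 98% of log2 changes of 1 and 39% of those of 0.5 were recovered. Far fewer genes changed there than the 5014 called here, which makes the adjusted threshold stricter. Those shares are therefore not the power of this comparison. The number of arrays limits the precision.

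Members and gene lists were chosen with earlier results of these data known, and lists were described by counts and medians, with no test. Named genes were the 15 largest rises and falls (called, no overlap, above the median level of 3.87, without small or antisense RNAs or unnamed loci), up to 5 called members per list and up to 3 against its majority, any member of lists of at most 15, up to 3 uncalled members of others, BIRC5, MCL1 and SLC35F2, and the 5 largest rises and falls of detected small RNAs. Genes named for a promoter motif, the structured small RNAs and MIR221 were added after their values were seen. Not every list and member is reported here. Alternatives covered probe set choice, scaling, variance model, a filter on dim genes, the arrays in the fit, the replicate block, 8 h replicates 1 and 2 as 1 sample, and leaving out each array. Figures used Python 3.11.15, pandas 2.3.3, numpy 2.4.6 and matplotlib 3.10.9.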

Additional observations from a re-analysis of the deposited data

Results flagged for a closer look

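Probe sets that are not listed with a gene in the platform annotation lie outside the gene tests, and many of them differed. Of 27904 such probe sets, 3239 were called between 20 h and 8 h in limma over all probe sets, which is 11.6%. Of these, 1294 were higher and 1945 lower at 20 h, and 299 were at least 2-fold higher and 812 at least 2-fold lower. They name no gene and were not analysed further.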

How the results depend on the processing

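Among 457 called genes named by the rules or the lists, 371 were called in each of the 19 alternatives run and 86 lost the call in at least 1, with no change of direction among called genes. With every probe set tested in place of 1 per gene, 3198 were higher and 4804 lower, 627 and 1242 of them at least 2-fold, since more features were tested. Leaving out each of the 9 arrays in turn gave 1315 to 2343 genes higher and 2307 to 3258 lower, and 216 to 265 and 354 to 439 at least 2-fold. The lowest count of higher genes came without 8 h replicate 3. With the replicate number as a block, 1744 were higher and 2782 lower, 248 and 399 at least 2-fold. With 8 h replicates 1 and 2 as 1 sample, 261 and 417 were at least 2-fold higher and lower, and 48 of the named calls were lost. Deviations of same-numbered 8 h and 20 h arrays correlated at -0.0666, 0.103 and 0.0135, so no shared deviation by replicate number was seen. The labels do not say whether such samples were paired. Lower genes made up 60.3% of those called, 52.5% after a further quantile normalization and 65.5% with arrays centred on their medians. Dim probe sets limit what can be called.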
